A study of Arabidopsis thaliana with 2 samples.

Results

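The proximal long arm of chromosome 4 of Arabidopsis thaliana, taken as positions 6000001 to 10000000 of the TAIR10 build, held 1868 of the 40612 SNP positions that the authors listed for 5 chromosomes. These are 25.7% of the 7263 listed SNPs of chromosome 4 and 4.60% of the whole list. The members are all listed SNPs of chromosome 4 within those limits. The limits were chosen by the density of listed SNPs along the chromosome, so every density given here is a description and none was tested.

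The study crossed potent, a dominant mutant impaired in lateral root formation, to the ecotype Landsberg erecta (Ler) in order to map the mutation. The mutant came from a Col-0 line with the reporters DR5::Luciferase, pWOX5::ER-YFP and pSCR::ER-GFP, whose seeds had been treated with 50 mM ethyl methanesulfonate (EMS), a chemical mutagen, for 12 hours. It was crossed 6 times to that parental line, kept heterozygous, and then crossed 5 times to Ler. From about 200 seeds of the last cross, seedlings that showed the phenotype and seedlings that did not were collected as 2 pools, labelled Ler, with 1 sample each and no stated number of seedlings. The single list names neither pool and gives a chromosome and a position only, with no allele and no read depth. No comparison between the phenotypes and no spread between replicates could therefore be had. The title of the list describes the SNPs as homozygous.

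In a cross between inbred ecotypes, the SNPs that distinguish the parents are inherited in blocks, because only a few crossovers occur on each chromosome in a meiosis. Repeated crossing to one parent leaves fewer and shorter blocks of the other, and pooled sequencing shows such blocks as runs of sites with a shared genotype. The long arm of chromosome 4 begins next to the centromere, where repeats and pseudogenes are common, and becomes richer in genes outward. Natural SNPs between ecotypes tend to be fewer in coding sequence than between genes.

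Across the 4 Mb the listed SNPs numbered 467 per Mb (95% Poisson interval 446 to 489). Poisson and binomial intervals here reflect counting error alone. Linked SNPs are not independent, so these intervals are narrower than the true uncertainty. The count was nearly the same in the first 2 Mb and lower in each of the next 2. The first Mb held 573 SNPs (527 to 622) and the second held 572 (526 to 621), with nearly the same interval. The third Mb held 407 (368 to 449) and the fourth held 316 (282 to 353). The fourth value takes in the last 0.4 Mb of the interval, which held only 57 SNPs, or 142.5 per Mb (108 to 185). From 8 Mb to 9.6 Mb the density was 416 per Mb (385 to 449), not below the 407 of the third Mb alone. The Mb before the interval held 730 SNPs (678 to 785) and the Mb after it held 109 (89.5 to 131). The 730 were uneven, with 20 to 165 per 100 kb window. The median window there held 55, the same as in the first Mb of the interval. The interval thus lay between the denser first 6 Mb of the chromosome, with 828 per Mb (805 to 852), and the sparse part beyond 10 Mb, with 49.8 per Mb (45.2 to 54.8).

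**Figure D1:**
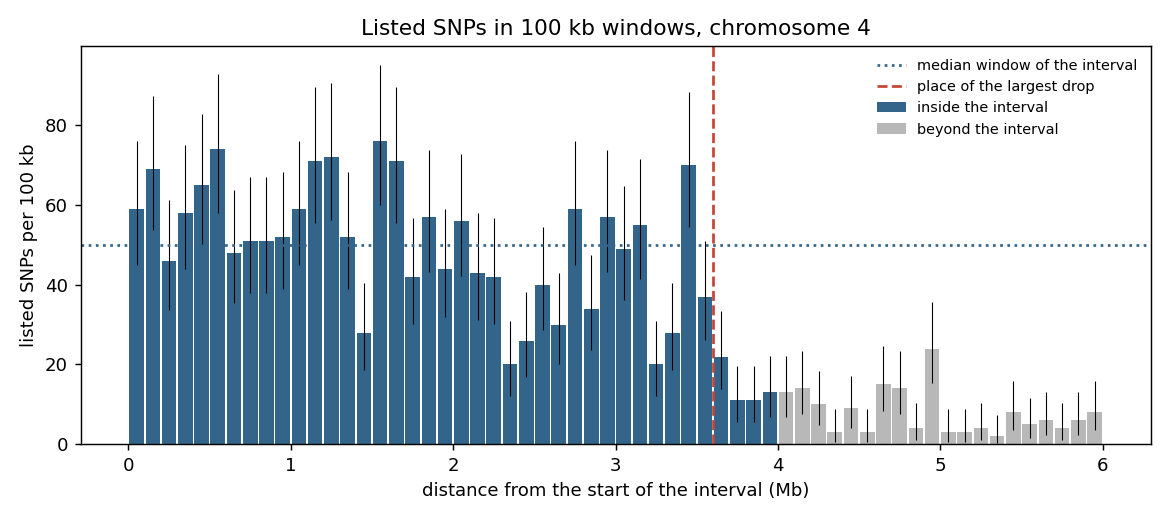
Listed SNPs in consecutive 100 kb windows of chromosome 4 (bars, with 95% Poisson intervals as lines) against the distance from the start of the interval in Mb. Windows of the first 2 Mb lie between 28 and 76 SNPs around a median of 57.5, and the last 4 windows inside the interval hold 22, 11, 11 and 13.

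The 40 windows of 100 kb held between 11 and 76 SNPs, with a median of 50. Of the 20 windows before 8 Mb, 5 were under that median, and of the 20 from 8 Mb onward, 15 were. The variance of the window counts was 2.80 times their mean before 8 Mb and 8.52 times their mean from 8 Mb onward. From 8 Mb to 9.6 Mb, without the last 4 windows, it was 5.39 times the mean. Windows differed before 8 Mb too: that from 7400001 held 28 SNPs (18.6 to 40.5) and the next held 76 (59.9 to 95.1). The profile beyond 8 Mb was not a smooth slope. Between 8.3 and 8.7 Mb the density was 290 per Mb (240 to 348), between 8.7 and 9.2 Mb it was 508 (447 to 574), between 9.2 and 9.4 Mb it was 240 (177 to 318), and between 9.4 and 9.6 Mb it was 535 (438 to 646). The recovered stretches came close to the density of the first 2 Mb, 572.5 per Mb (540 to 607), and their intervals overlapped it. The limits of these stretches follow the highs and lows of the window counts, so their densities are description only.

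The fall came before the 10 Mb limit. Of all 100 kb steps from 7 to 13 Mb, the one at 9.6 Mb had the largest drop in count, with 210 SNPs in the 500 kb before it and 70 in the 500 kb after it, 3 times as many before as after. In 50 kb windows, the counts from 9.4 Mb on were 36, 34, 17, 20, 12, 10, 5, 6, 4, 7, 4 and 9 up to 10 Mb, and then 10, 3, 6 and 8. Counts thus declined over several windows from 9.5 Mb to about 9.7 Mb and then stayed low through the 10 Mb limit with no further change there. The last 0.4 Mb of the interval held 57 SNPs, or 142.5 per Mb (108 to 185), close to the 109 per Mb of the following Mb, with overlapping intervals. From 6 Mb to 9.6 Mb the density was 503 per Mb (480 to 527). The count per 100 kb rose at the 6 Mb limit and was flat at the 10 Mb limit. The last SNP before the interval was at position 5996707 and the first inside it at 6004795, with 32 SNPs in the 100 kb before the start and 59 in the first 100 kb. The last inside was at 9991521 and the first beyond at 10008309, with 13 SNPs in the 100 kb on either side.

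The densest 100 kb window, from 7500001 to 7600000, held 76 SNPs (60 to 95), 1.52 times the median window. The next were the windows from 6500001 with 74, from 7200001 with 72, and from 7100001 and 7600001 with 71 each. Their intervals overlapped, so their order is not resolved. The sixth, from 9400001 with 70 SNPs, was the single window of 70 or more that lay beyond 8 Mb, and it stood 100 kb before the fall. None of these 6 windows rested on 1 clump: their SNPs occupied between 37 and 46 different 1 kb bins of 100. Within the densest window, 13 of 27 protein-coding genes held a SNP, and the gene with the most was AT4G12840 with 8. In the others the leading genes were UBP9, a ubiquitin-specific protease, with 8, SEC1B with 6, the phospholipase D gene PLDGAMMA2 with 6, AT4G13100 with 9 and AT4G16807 with 10.

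The sparsest windows were those from 9700001 and 9800001 with 11 SNPs each and from 9900001 with 13, all after the fall. Next came the windows from 8300001 and 9200001 with 20 each. In the window from 8300001, 4 of 25 protein-coding genes held a SNP, and each of them had 1, such as MDA1 (AT4G14605). Across the 40 windows, the count and the percentage of bases outside every gene had a Pearson r of 0.34 and a Spearman rho of 0.44, given as a description since the windows share 1 list and are linked. Sequence outside genes made up a median of 41.0% of a window before 8 Mb and 31.3% from 8 Mb on. In the sparsest windows named above it made up, in the same order, 31.2%, 37.6%, 53.0%, 41.2% and 25.4%. The lowest windows thus did not share a low value. The part of gene content in the decline was not tested.

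Protein-coding genes carried listed SNPs at a lower density than the sequence between genes. Gene bodies follow RefSeq's annotation of TAIR10.1. Protein-coding genes covered 58.5% of the interval and held 851 SNPs, or 364 per Mb (340 to 389). Sequence outside every gene covered 36.4% and held 947, or 650 per Mb (609 to 693), 1.79 times as dense. Outside genes, the density was 660 per Mb (612 to 711) within 1 kb of a gene and 622 (548 to 704) farther away, so no difference by distance was detectable. Pseudogenes held 32 SNPs, or 227 per Mb (155 to 320), below protein-coding genes. Read depth is unknown, so few listed SNPs in pseudogenes do not show that their sequence is the same. LncRNA genes held 17, or 676 per Mb (394 to 1083). In the first 6 Mb of the chromosome, pseudogenes held 669 per Mb (629 to 712) and protein-coding genes 813 (771 to 857). The ratio of sequence outside genes to protein-coding genes was 1.14 there, 1.75 in the first 10 Mb of chromosome 3 and 2.00 in the first 10 Mb of chromosome 5. These ratios were not tested against each other.

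**Figure D2:**
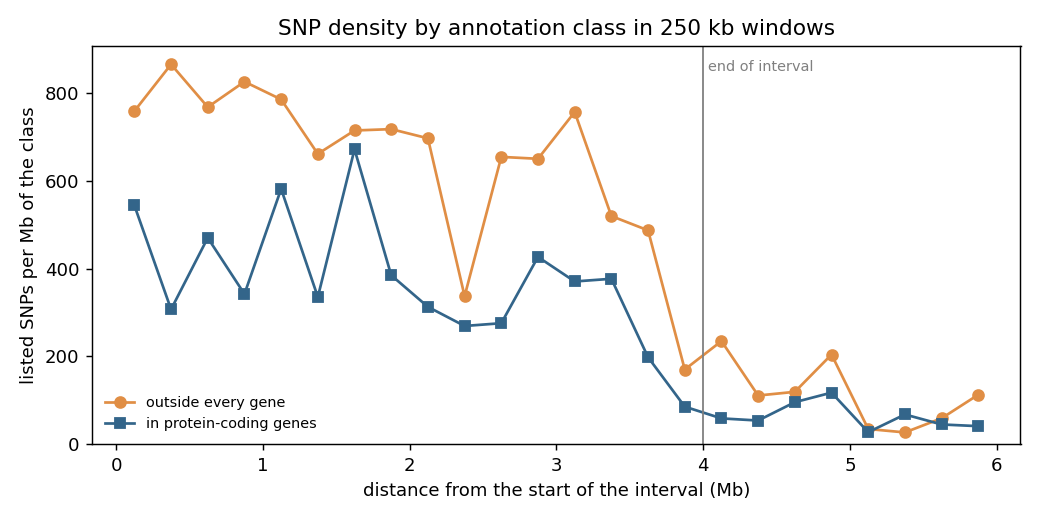
Listed SNPs per Mb of sequence outside every gene (circles) and of protein-coding genes (squares) in 250 kb windows, against the distance from the start of the interval in Mb; the grey line marks its end. Both classes end the interval low, at 170 and 85.6 per Mb in its last window, after 758 and 544 in its first.

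Both classes of sequence took part in the fall. In the 500 kb before 9.6 Mb, protein-coding genes held 123 SNPs and sequence outside genes 78, and in the 500 kb after it they held 32 and 36. Scanned alone by count, protein-coding genes had their largest drop at 9.6 Mb and sequence outside genes at 9.2 Mb, where the count went from 125 to 64. The amount of such sequence also differed there. It made up 31.2% to 46.9% of the 100 kb windows in the 500 kb before 9.2 Mb and 16.4% to 33.6% in the 500 kb after. The place of the largest drop in density outside genes was not scanned. By Mb, the density in genes was 406, 492, 318 and 265 per Mb, and the density outside genes was 803, 716, 569 and 441. The fourth values include the 0.4 Mb after the fall. From 8 Mb to the fall the densities were 334 in genes and 587 outside them, not below those of the third Mb. The share of protein-coding genes with a listed SNP was 44.1%, 48.3%, 40.1% and 33.9% in the 4 successive Mb. It was 41.3% (173 of 419) from 8 Mb to the fall, 19% (19 of 100, exact binomial interval 11.8 to 28.1) from the fall to 10 Mb, and 13.9% (36 of 259) in the Mb beyond. These values follow from the density that chose the interval and are its description.

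SNPs came in clumps. The median distance between neighbours was 951 bp, the quartiles were 171.5 and 2687.5 bp, and the mean was 2135 bp. Of 1867 distances, 46 were 1 bp, a further 127 were up to 10 bp, 215 up to 100 bp, 568 up to 1000 bp and 842 up to 10000 bp, and 69 were longer. On a log scale the distances formed 2 humps, with 73 from 18 bp to below 32 bp, 40 in each of the next 2 bins up to 100 bp, and 270 from 1000 bp to below 1778 bp. In all, 701 SNPs (37.5%, 35.3 to 39.8) had a neighbour within 100 bp. That share was 37.8% (36.5 to 39.2) in the first 10 Mb of chromosome 5, which has a similar density of 482 per Mb (468 to 495), and 44.9% (43.5 to 46.3) in the denser first 6 Mb of chromosome 4. By Mb it ranged from 32.7% (28.1 to 37.5) in the third to 40.6% (36.5 to 44.7) in the second, with overlapping intervals. It was lower in some shorter sparse stretches, 21.6% (14.5 to 30.1) between 8.3 and 8.7 Mb and 24.6% (14.1 to 37.8) from 9.6 Mb to 10 Mb. The first of these intervals did not overlap that of the second Mb, but it overlapped that of the third. In the sparse windows from 9200001 and 9300001, 8 of 20 and 8 of 28 SNPs had such a neighbour. The share was thus not low in every sparse window. These stretches were picked for their low counts, so their shares are description only.

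**Figure D3:**
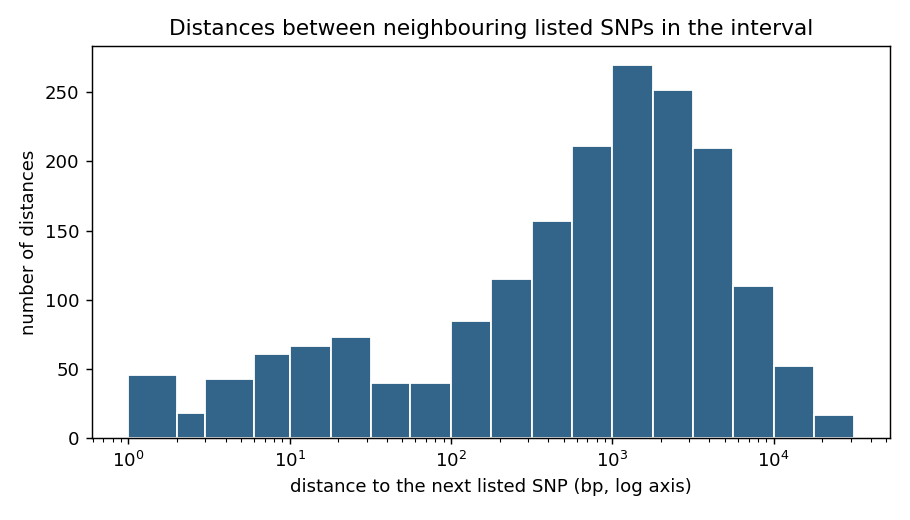
Number of distances between neighbouring listed SNPs of the interval by length in bp on a log axis. The main hump lies near 1 to 3 kb and a smaller one below 32 bp, with 40 distances in each of the 2 bins from 32 to 100 bp.

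Clumps were many and small. Joining SNPs no more than 100 bp apart gave 258 pairs, 42 triplets and 13 clumps of 4 or more, besides 1167 single SNPs. The largest clumps had 6 SNPs. One lay between genes, its middle 131 bp from OSM34, an osmotin-like protein gene, with SNPs at 7026281, 7026314, 7026368, 7026370, 7026396 and 7026401. The other lay inside AT4G16807, with SNPs at 9458758, 9458775, 9458799, 9458853, 9458854 and 9458860. Of the 3 clumps of 5, each lay between genes, the closest protein-coding genes being AT4G09670, TT8 and AT4G12770. With joins of up to 1000 bp, 1412 SNPs (75.6%) fell into 456 clumps, the largest with 12 SNPs over 2.72 kb from 7678441 to 7681161. It ran from EDA21 across a lncRNA gene into ROPGEF9, a gene for an activator of Rop GTPases. The next had 11 SNPs over 2.00 kb in AT4G12830 and AT4G12840. Clumps of 5 or more by this wider join held 21.8% of the SNPs, so the density did not rest on a few large clumps.

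The longest distance between neighbours was 28.8 kb, from position 8297504 to 8326280. Without the 7 SNPs that have no neighbour within 10 kb, the longest was 59.8 kb, from 9800800 to 9860608. With all SNPs, the longest was 68.8 kb in the first 6 Mb of the chromosome, 221 kb beyond 10 Mb, 103 kb in the first 10 Mb of chromosome 3 and 72.9 kb in that of chromosome 5, all of which are longer stretches than 4 Mb and so have more room for a long distance. The gap of 28.8 kb opened inside ACD6, an ankyrin-repeat membrane protein gene of defence and cell death with 2 SNPs, and closed between genes next to AT4G14480. It enclosed 7 protein-coding genes, IBR10, which acts in the response to the auxin precursor indole-3-butyric acid, among them. The next were 28.2 kb from 9800800 to 9828952, 27.2 kb from 9721304 to 9748510 and 25.8 kb from 9861707 to 9887552, all 3 after the fall. They enclosed 7, 6 and 8 protein-coding genes, including CBL1, a calcium sensor, and the homeodomain gene HAT1. These gaps ran from AT4G17585 to AT4G17650, from AT4G17410 to AT4G17483 and from AT4G17718 to AT4G17790. The fifth, 24.9 kb from 9274787 to 9299711, lay between AT4G16444 and AT4G16500, in the low stretch before the fall. Genes were not absent from the gaps: protein-coding sequence made up between 46.7% and 90.6% of these 5, against 58.5% of the interval.

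Distances over 10 kb added up to 1068 kb, or 26.7% of the interval. Of the 69, 22 began in the first 2 Mb and 17 in the last 0.4 Mb. Of the 13 over 20 kb, 4 began in the first 2 Mb and 4 in the last 0.4 Mb. Only 7 SNPs (0.375%) had no neighbour within 10 kb, at 8474693, 9274787, 9748510, 9828952, 9844012, 9906460 and 9937035. The last 5 of these lay after the fall. Beyond 10 Mb, 30.5% of the listed SNPs were isolated in this sense.

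Of 990 protein-coding genes with their midpoint in the interval, 410 (41.4%, exact binomial interval 38.3 to 44.6) held at least 1 listed SNP. In the whole list the share was 29.2%, in the first 6 Mb of chromosome 4 it was 58.1%, and in the first 10 Mb of chromosome 5 it was 40.7%. A single SNP was listed in 213 genes, 2 to 4 in 165 and 5 or more in 32. Since the list has no alleles, a SNP in a gene may be a natural difference of the ecotypes or an EMS change. Longer genes held SNPs more often. Of the 330 longest genes 56.4% held one, against 28.5% of the 330 shortest, although per kb the shortest had more, 0.466 against 0.347.

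The genes with the most SNPs were AT4G11800 and AT4G16180 with 11 each. In AT4G11800 the SNPs were spread from 7094007 to 7099582 and 4 of the 11 had a neighbour within 100 bp. In AT4G16180 they ran from 9166037 to 9169710 and 8 of the 11 had one. CTC1, a gene of telomere maintenance, had 10 in 6.61 kb, between 6116816 and 6123251. AT4G16807 also had 10, but within 1.03 kb, between 9458072 and 9459102. That made 4.21 per kb of gene against 1.51 in CTC1, while all protein-coding genes of the interval together had 0.363 per kb. AT4G13100 had 9, UBP9 and AT4G12840 had 8 each, and AT4G11160 and AT4G11270 had 7 each. The next place, with 6 SNPs, was shared by 13 genes, CYP702A3, CYP702A6 and PLDGAMMA2 among them.

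Of 11 auxin and root genes, 3 (27.3%) held a listed SNP, against 41.4% of all 990 genes, and the median was 0 in both. With 11 genes, this is not read as a difference. The homeodomain-leucine zipper gene HB-2 (AT4G16780), known for its part in the shade response, had 2, at 9450523 and 9450526, 3 bases apart. IAA1 (AT4G14560), an Aux/IAA repressor of auxin response, had 1 at 8361946, and YUC2 (AT4G13260), a flavin monooxygenase gene of auxin synthesis, had 1 at 7722723. No SNP was listed in IAA14 (AT4G14550), the Aux/IAA gene also named SOLITARY ROOT, whose dominant mutation blocks lateral roots. The SNP closest to it lay 1.18 kb away, and it stands in the low stretch around 8.3 Mb. None was listed in AIR1, SKU5, IAGLU, SGT1B, HAT1, RR2 or ACS6 either. Their nearest SNPs lay between 0.224 kb from RR2, a response regulator of cytokinin signalling, and 10.03 kb from IAGLU, an auxin glucosyltransferase gene.

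Light and flowering genes held SNPs in 5 of 6, against 41.4% of all genes, with a median of 1.5 against 0. These genes were long, with a median of 4.11 kb against 2.06 kb, and per kb they had 0.357 SNPs, close to the 0.363 of all genes. The phytochrome gene PHYD (AT4G16250) had 3, at 9195594, 9197716 and 9199590. DET1 (AT4G10180), a repressor of light responses in the dark, had 2, at 6349280 and 6349293, and the early light-induced gene ELIP2 had 2, at 8418315 and 8419192. ESD4, a SUMO protease gene, and TT8, a bHLH regulator of flavonoid synthesis, had 1 each. The flowering regulator FCA, the longest of the 6 at 8.39 kb, had 0, and its nearest SNP lay 1.92 kb away.

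Among 4 immunity genes, RPP5 had 1 SNP and RPP4, SNC1 and CPR1 had 0. The share with a SNP was thus 25%, against 41.4% of all 990 genes. With 4 genes, this is not read as a difference. RPP4, SNC1 and RPP5 encode receptors of the NLR type and stand in 1 tandem cluster, and CPR1 encodes an F-box protein that limits the level of SNC1. The block from RPP4 to RPP5, 56.3 kb long, held 17 SNPs, or 302 per Mb (176 to 484), with 7 in its 10 protein-coding genes and a longest distance of 16.0 kb. That range took in both the 467 per Mb of the interval and the 364 of its protein-coding genes. Sequence outside genes made up 13.6% of the block against 36.4% of the interval, and the part of this was not tested. Reads of near-identical copies can be misplaced in such clusters and depth is unknown, so few listed SNPs there do not show that the sequence is the same. The block began near the end of the dense window that holds AT4G16807.

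Of 16 cytochrome P450 genes, 10 (62.5%) held a SNP, against 41.4% of all genes. Their median was 1 against 0, and they had 27 SNPs in all, or 0.655 per kb against 0.363. CYP702A3 and CYP702A6 had 6 each, whereas 6 had 0, among them CYP83A1, an enzyme gene of glucosinolate synthesis. Of 7 terpenoid synthase genes, 4 (57.1%) held a SNP, against 41.4% of all genes, with 0.419 per kb against 0.363. PEN1, which encodes arabidiol synthase, had 5 and BARS1, which encodes baruol synthase, had 4. PEN1 and BARS1 lie among the CYP702A and CYP705A genes, and the block from CYP702A2 to CYP702A6, 80.01 kb long, held 62 SNPs, or 775 per Mb (594 to 993), the interval of which lay above the 467 per Mb of the whole 4 Mb. Of these, 27 were in genes and 35 outside every gene, and sequence outside genes made up 51.0% of the block against 36.4% of the interval. This block was singled out after its values were seen. Of 6 cysteine-rich receptor kinase genes, 5 (83.3%) held a SNP, against 41.4% of all genes, with 0.478 per kb against 0.363. ARCK1 (AT4G11890) had 3 and CRK30 had 2. Of 3 SAUR genes, named for the small auxin up RNAs, AT4G12410 had 1 and AT4G09530 and AT4G13790 had 0. The words for F-box proteins, UDP-glycosyltransferases and ribosomal proteins matched 1 gene each, FBD1 with 1 SNP, UGT71B5 with 0 and RPS18C with 0. They missed other members of these families, such as CPR1, so these are no family counts. Lists of this size differ by 1 or a few linked genes, and no list was tested.

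Among neighbouring SNPs 3 to 62 bp apart that both lay in protein-coding genes, 63 of 146 distances (43.2%, exact binomial interval 35.0 to 51.6) were whole multiples of 3 bp. Outside every gene, 49 of 137 (35.8%, 27.8 to 44.4) were. The intervals overlapped, so no difference was detectable in the interval. In the whole list the shares were 41.9% (40.1 to 43.8) of 2775 distances in genes and 37.2% (35.5 to 39.0) of 2852 outside them, and these intervals did not overlap.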

How the data were processed

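The authors deposited 1 table of SNP positions, in which each row of a column pair gives a chromosome and a position, per the file headers. Per the series' design text, the authors called SNPs with SNPtrack, on TAIR10 as named in the submitters' processing notes. The sources used here do not give the aligner, its thresholds or when a site counted as homozygous. Read depth is unknown, so a stretch without SNPs can hold reference, heterozygous or uncallable sites. The 5 position cells that held text without a number were dropped.

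Counts, distances and clumps were computed with Python 3.11.15 and numpy 2.4.6, and exact 95% Poisson and Clopper-Pearson intervals with scipy 1.17.1. The code was tested on simulated lists. RefSeq genes of TAIR10.1 were used, since its nuclear chromosomes equal those of TAIR10; no gene coordinates are printed. The share of the interval's SNPs in protein-coding genes, 45.6%, was the lowest of 9 placements shifted by up to 10000 bp, the others reaching 59.4%. Where genes overlapped, a base was counted once, as protein-coding first. All 21 genes sought by locus were found. Families were matched by words in the gene names, which misses members whose names lack them; those for disease resistance proteins and lipid transfer proteins matched 0 genes. Named genes were the 10 with the most SNPs, all list members, the leading family members, and genes at the densest windows, longest gaps and largest clumps. The interval, lists and rules were chosen with earlier results of these data known. No test was run, since 1 list names neither pool.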

Additional observations from a re-analysis of the deposited data

How the results depend on the processing

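No paired analysis was possible because there is a single list of positions, tied to neither of the 2 pools. The density of the interval, 467 per Mb, was 297 with at most 1 SNP per 1 kb, 390.0 with at most 1 per 100 bp, both lower by construction, and 507 without the last 500 kb, which holds the fall. The share of SNPs with a close neighbour was 33.8% at 50 bp and 45.8% at 200 bp. Leaving out the 7 SNPs alone within 10 kb moved the longest gap to 59.8 kb, from 9800800 to 9860608, after the fall, a step that never shortens a gap. Extending genes by 1 kb on both sides raised the share with a SNP to 70.1%. The place of the fall, 9.6 Mb, was the same in all 3 alternatives, the ratio of the densest to the median window stayed between 1.36 and 1.80 in 4, and the ratio of density outside genes to that in protein-coding genes stayed at 1.71 and 1.75 in 2, which were chosen after seeing the data. The unknown read depth limits every statement on gaps and on genes without a listed SNP.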
